A study of Mus musculus with 9 samples.

Results

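The 10 genes described here are the mitotic kinases Aurka, Aurkb, Plk1, Plk4 and Nek2 and the partners Incenp, Birc5, Cdca8, Tpx2 and Bora. They were chosen by name, for the function of their proteins, from the 54532 genes listed for each library. The choice was made with earlier results of these data known. All 10 were among the 11727 genes with enough signal to be tested (at least 1 FPKM in at least 3 libraries). RNA sequencing was performed on 9 libraries of B.END3 cells, a mouse brain endothelial cell line labelled C57BL/6. Cells of the control group (Ctrl, 3 libraries) are labelled untreated. Cells of the other groups were grown to a monolayer, kept for 90 min with the photosensitizer porfimer sodium at 300 µg/mL, and then given light of 635 nm at 100 mW/cm2 up to a dose of 10 J/cm2 (Ep1, 3 libraries) or 20 J/cm2 (Ep2, 3 libraries). Libraries of cells given the photosensitizer or the laser alone were not analysed here, so the parts of the drug and the light cannot be told apart. The time between irradiation and lysis was not given in the sources used here, nor whether the replicates were separate cultures, so the p-values measure the spread between these libraries, which may be technical.

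The libraries held between 16240688 and 19509225 fragments on genes. The labelled cell type was checked against its markers. Of 8 endothelial markers, only Eng reached 1 FPKM in all libraries, Cdh5 lay between 0.524 and 1.09 FPKM, Emcn was listed at 0 in all 9 libraries, and the summed level of the list was 2.16 to 2.68 FPKM. Of 5 epithelial markers, the keratins Krt8, Krt18 and Krt19 were abundant, whereas Cdh1 was 0.0118 to 0.103 FPKM and Epcam 0.607 to 2.03 FPKM. The summed level of the list, nearly all of it keratins, was 1029 to 1081 FPKM in Ctrl, 937 to 1041 FPKM in Ep1 and 1155 to 1372 FPKM in Ep2. The data therefore go against the endothelial label, and the samples are called B.END3 cells here only because the labels do so. Transcripts of the mitochondrial genome took 1.90% to 1.99% of fragments in Ctrl, 2.0% to 2.08% in Ep1 and 2.04% to 2.49% in Ep2. The part of the epithelial markers and of the mitochondrial share in the results below was not tested.

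Aurora and Polo-like kinases drive a cell through mitosis: they mature the centrosomes, build the spindle, correct the attachment of chromosomes and start cytokinesis. Each acts through binding partners that switch it on or bring it to its place, and transcripts of most of these genes accumulate late in the cell cycle and are low in resting cells. In bulk RNA, fewer cells in those phases and less RNA per cell cannot be told apart.

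All 10 genes were lower at 20 J/cm2, and none passed the test at 10 J/cm2. In Ep2 against Ctrl, their mean FPKM lay between 24.3% (Plk4) and 55.4% (Aurkb) below the control mean, with Plk1 (55.0%) and Incenp (48.8%) next to Aurkb. With a limma fit of log2(FPKM + 1) over all tested genes and an adjusted p under 0.05 (Benjamini-Hochberg), 10 of 10 members were below Ctrl in Ep2 and 0 were above it, where 29.3% of all tested genes were lower and 23.9% were higher. The median log2 difference of the 10 genes was -0.79, and that of all tested genes was -0.03. The study itself had reported cell-cycle annotations among the lower genes of Ep2, and Aurkb and Plk1 are among the hub genes it chose on these samples. The 10 members were chosen with such results known, so their fall is not independent evidence of a direction.

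**Figure D1:**
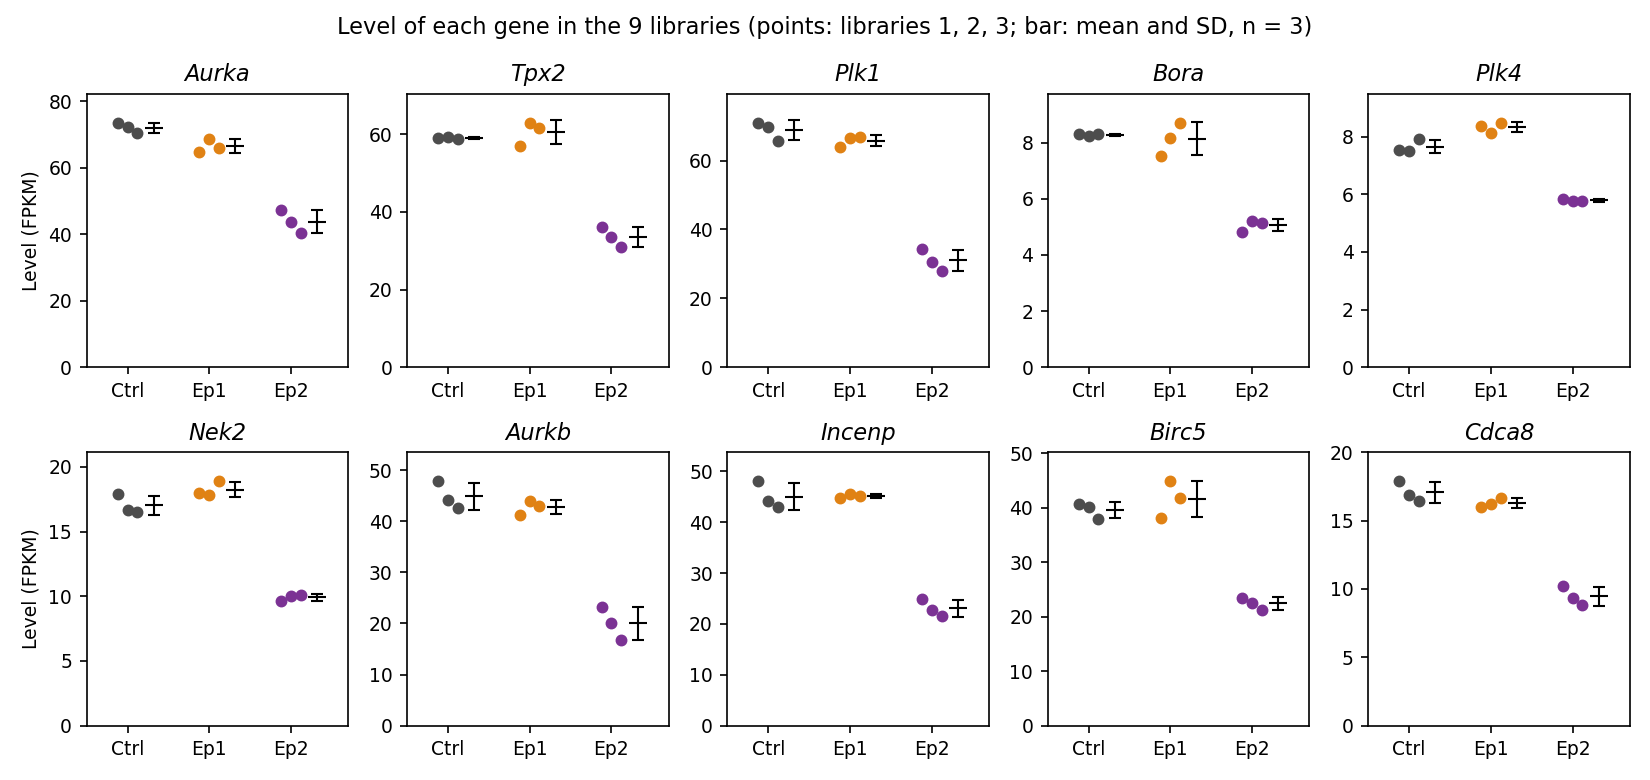
Level in FPKM (y axis, from 0) of each of the 10 genes in the 9 libraries, by group (x axis: Ctrl, Ep1 at 10 J/cm2, Ep2 at 20 J/cm2). Points are the libraries 1, 2 and 3 of a group and the bar beside them is the mean and SD (n = 3). The Ep2 libraries lie below all Ctrl and Ep1 libraries for all 10 genes.

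Sequences upstream of the genes are shown first, as a description. Whether they have a part in the fall at the higher dose was not tested. RefSeq promoter windows (GRCm38.p6) were matched for 6 of the 10 genes (Plk1, Aurka, Cdca8, Nek2, Plk4 and Birc5), and those of Aurkb, Incenp, Tpx2 and Bora were not used here. The window searched runs from 250 bases before to 50 bases after the annotated start, and the stretch from 100 bases before to 50 after is printed 5′ to 3′ on the strand of the gene. This start is that of RefSeq and can differ from the end of the gene span given below. The stretch of Plk4 lies wholly before its span (from 40800019), and that of Cdca8 lies inside its span (124918465-124939311). Capitals mark CCAAT (the CCAAT box) and TTTGAA (the CHR element of late cell-cycle promoters), on either strand, so that ATTGG is a CCAAT on the opposite strand. The stretches are chr7:122159335-122159484 (plus strand), chr2:172370521-172370670 (minus), chr4:124936868-124937017 (minus), chr1:191821373-191821522 (plus) and chr3:40799851-40800000 (plus), chosen to show the genes with these letters and Plk4, which has neither. The Birc5 window, also without them, is not printed.
Plk1: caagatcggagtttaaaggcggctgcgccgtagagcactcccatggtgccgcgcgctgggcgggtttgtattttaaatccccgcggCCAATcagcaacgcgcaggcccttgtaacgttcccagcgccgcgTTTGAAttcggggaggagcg
Aurka: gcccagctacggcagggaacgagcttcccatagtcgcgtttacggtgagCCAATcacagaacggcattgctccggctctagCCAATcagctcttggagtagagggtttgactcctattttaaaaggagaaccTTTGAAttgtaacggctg
Cdca8: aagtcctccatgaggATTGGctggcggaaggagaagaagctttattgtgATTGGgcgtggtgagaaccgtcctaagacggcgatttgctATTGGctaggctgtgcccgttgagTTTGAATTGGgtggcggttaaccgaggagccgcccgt
Nek2: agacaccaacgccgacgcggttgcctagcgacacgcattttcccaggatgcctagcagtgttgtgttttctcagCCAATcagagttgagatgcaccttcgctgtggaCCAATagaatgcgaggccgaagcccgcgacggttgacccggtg
Plk4: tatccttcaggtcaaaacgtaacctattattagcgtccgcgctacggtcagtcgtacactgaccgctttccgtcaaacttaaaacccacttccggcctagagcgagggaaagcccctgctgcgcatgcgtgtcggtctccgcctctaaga

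CCAAT was found in 4 of the 6 windows, TTTGAA in 3 and both in 3 (Plk1, Aurka and Cdca8). Among the 32817 promoter windows of the reference table, 37.4% hold CCAAT, 17.9% hold TTTGAA and 6.94% hold both. Among the 10613 windows of tested genes, these shares were 38.1%, 11.7% and 4.76%. Positions are counted in bases from the annotated start, with negative values before it. TTTGAA begins at 31 in Plk1 and at 33 in Aurka, with a CCAAT at -14 in Plk1 and CCAATs at -51 and -19 in Aurka. Cdca8 carries 4 CCAATs, all on the opposite strand, and the last of them shares a base with the TTTGAA that begins at 14. Nek2 has CCAATs at -26 and 8 and no TTTGAA. Plk4 has neither, but holds 1 E2F core on the opposite strand at -120, outside the stretch printed. The letters searched as an E2F core were TTCCCGC, then also TTGGCGC, next to these TTCGCGC, and lastly TTGCCGC. At least 1 of them is in 9.57% of all windows and in 17.5% of those of tested genes. The Birc5 window holds none of these letters. The log2 difference in Ep2 against Ctrl was -0.79 for Birc5, -0.79 for Cdca8 and -0.71 for Aurka. Whether the letters go with the size of the fall was not tested. A match is a description of the sequence, and the motifs were chosen with earlier results of these data known.

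Aurka (ENSMUSG00000027496, chr2:172356190-172370535, minus strand) encodes Aurora A, which matures centrosomes and builds the bipolar spindle. Its level was 73.5, 72.1 and 70.5 FPKM in the 3 Ctrl libraries, 64.7, 68.7 and 65.9 FPKM in Ep1, and 47.2, 43.8 and 40.2 FPKM in Ep2. The 3 groups did not overlap, and Ep2 stood furthest apart. The log2 difference was -0.71 in Ep2 against Ctrl (SE 0.057, adjusted p = 1.42e-05) and -0.12 in Ep1 against Ctrl (95% interval -0.24 to 0.01, adjusted p = 0.208). Aurka had the highest mean of the 10 genes in every group, with 72.0 ± 1.52 FPKM in Ctrl and 43.7 ± 3.52 FPKM in Ep2 (SD, n = 3). Its libraries overlapped those of Plk1 in Ctrl and in Ep1. In Ep1 the means of Aurka and Plk1 were 66.4 and 65.8 FPKM.

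Tpx2 (ENSMUSG00000027469, chr2:152847964-152895321, plus strand) encodes the microtubule-binding protein that activates Aurora A and holds it on the spindle. Its level was 59.1, 59.3 and 58.8 FPKM in Ctrl, 57.0, 62.9 and 61.5 FPKM in Ep1, and 36.2, 33.6 and 30.8 FPKM in Ep2. The Ctrl values fell inside the range of Ep1, and the Ep2 values lay well below both. In Ep2 against Ctrl, the log2 difference of Tpx2 was -0.80 (SE 0.059, adjusted p = 9.94e-06).

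Plk1 (ENSMUSG00000030867, chr7:122159439-122169873, plus strand) encodes Polo-like kinase 1, which acts from mitotic entry to cytokinesis. Its level was 71.0, 69.9 and 65.6 FPKM in Ctrl, 63.9, 66.5 and 66.8 FPKM in Ep1, and 34.4, 30.6 and 28.1 FPKM in Ep2. Ctrl and Ep1 overlapped, while each Ep2 library was far below them. The log2 difference in Ep2 against Ctrl was -1.13 (SE 0.067, adjusted p = 4.03e-06), the smallest adjusted p of the 10 genes, and its fall ranked 54 among the 11727 tested genes.

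Bora (ENSMUSG00000022070, chr14:99046222-99074540, plus strand) encodes the cofactor through which Aurora A activates PLK1 before mitosis. Its level was 8.30, 8.23 and 8.31 FPKM in Ctrl, 7.54, 8.17 and 8.71 FPKM in Ep1, and 4.83, 5.22 and 5.15 FPKM in Ep2. The Ctrl libraries were nearly equal, Ep1 spread to both sides of them, and Ep2 was below both. In Ep2 against Ctrl, the log2 difference of Bora was -0.61 (SE 0.056, adjusted p = 2.84e-05).

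Plk4 (ENSMUSG00000025758, chr3:40800019-40816883, plus strand) encodes the kinase that starts centriole duplication, a step of S phase rather than of mitosis. Its level was 7.53, 7.50 and 7.91 FPKM in Ctrl, 8.36, 8.13 and 8.48 FPKM in Ep1, and 5.85, 5.76 and 5.76 FPKM in Ep2. All 3 Ep1 libraries lay above Ctrl and all 3 Ep2 libraries below it. The log2 difference in Ep2 against Ctrl was -0.35 (SE 0.043, adjusted p = 0.000153), the smallest fall of the 10 genes. In Ep1 against Ctrl it was 0.11 (95% interval 0.01 to 0.21), with an unadjusted p of 0.0324 and an adjusted p of 0.131 in limma, and it did not pass the test. With a correction for gene length and GC content, chosen after seeing the data, the Ep1 difference of Plk4 shrank to 0.01 (limma adjusted p = 0.898). Its difference in Ep2 against Ctrl became -0.48.

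Nek2 (ENSMUSG00000026622, chr1:191821444-191833050, plus strand) encodes the kinase that dissolves the linker between the centrosomes at mitotic onset. Its level was 17.9, 16.6 and 16.5 FPKM in Ctrl, 18.0, 17.8 and 18.9 FPKM in Ep1, and 9.61, 10.0 and 10.1 FPKM in Ep2. Ctrl replicate 1 lay within the range of Ep1, and the Ep2 libraries were close to each other and below both groups. For Nek2, the log2 difference in Ep2 against Ctrl was -0.72 (SE 0.047, adjusted p = 5.91e-06).

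The remaining genes form the chromosomal passenger complex, which sits on the inner centromere and moves to the central spindle in anaphase. Aurkb (ENSMUSG00000020897, chr11:69045647-69051664, plus strand) encodes its kinase, Aurora B. Its level was 47.8, 44.1 and 42.6 FPKM in Ctrl, 41.3, 44.0 and 43.1 FPKM in Ep1, and 23.2, 20.0 and 16.8 FPKM in Ep2. Ctrl and Ep1 overlapped, and the Ep2 libraries were low but spread more widely, relative to their mean, than those of any other member. The log2 difference in Ep2 against Ctrl was -1.14 (SE 0.098, adjusted p = 2.2e-05), the largest fall of the 10 genes.

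Incenp (ENSMUSG00000024660, chr19:9872297-9899533, minus strand) encodes the scaffold that binds and activates Aurora B. Its level was 48.1, 44.1 and 43.0 FPKM in Ctrl, 44.8, 45.6 and 45.2 FPKM in Ep1, and 24.8, 22.8 and 21.5 FPKM in Ep2. The Ep1 values lay inside the Ctrl range, and Ep2 was below it. In Ep2 against Ctrl, the log2 difference of Incenp was -0.94 (SE 0.058, adjusted p = 5.17e-06).

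Birc5 (ENSMUSG00000017716, chr11:117849251-117855743, plus strand) encodes survivin, which brings the complex to centromeric chromatin and is also known as an inhibitor of cell death. Its level was 40.7, 40.1 and 37.98 FPKM in Ctrl, 38.2, 44.8 and 41.8 FPKM in Ep1, and 23.5, 22.6 and 21.2 FPKM in Ep2. Ctrl and Ep1 overlapped, with Ep1 replicate 2 the highest, and Ep2 was below both. The log2 difference in Ep2 against Ctrl was -0.79 (SE 0.063, adjusted p = 1.38e-05).

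Cdca8 (ENSMUSG00000028873, chr4:124918465-124939311, minus strand) encodes borealin, which joins survivin and INCENP in the targeting part of the complex. Its level was 17.9, 16.9 and 16.4 FPKM in Ctrl, 16.0, 16.2 and 16.6 FPKM in Ep1, and 10.2, 9.33 and 8.85 FPKM in Ep2. Ctrl and Ep1 overlapped by a small margin and Ep2 was below both. For Cdca8, the log2 difference in Ep2 against Ctrl was -0.79 (SE 0.056, adjusted p = 8.16e-06).

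The spans of 6 genes contain no other listed gene. Tpx2 is overlapped on its own strand by Mir5622 (60 bases, 0 FPKM in all libraries). An antisense gene overlaps the span of Cdca8 (9930104L06Rik, 2.57 to 3.79 FPKM), Plk1 (Gm44985, at most 0.424 FPKM) and Nek2 (Gm38037, 0.232 to 0.60 FPKM), and strandedness was not given in the sources used here, so a share of their reads cannot be assigned to a strand. Between 441 (Bora) and 5424 (Tpx2) fragments were counted per gene and library, which leaves a counting error of at most 4.76%.

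The comparison of both light doses gave the same direction. In Ep2 against Ep1, 10 of 10 genes were lower at an adjusted p under 0.05 (limma), where 25.2% of all tested genes were lower. Their median log2 difference was -0.83, against -0.01 for all tested genes, and ran from -1.07 (Aurkb, adjusted p = 4.74e-05) to -0.46 (Plk4, adjusted p = 5.42e-05). With a log2 difference below -0.6 required as well, 9 of 10 genes passed in Ep2 against Ctrl (all but Plk4), where 5.87% of all tested genes did. In Ep2 against Ep1, 7 of 10 passed (not Aurka at -0.59, Bora at -0.59 and Plk4), where 3.97% of all tested genes did. Adding 1 to FPKM shrinks the differences of low genes such as Bora. With 0.1 added instead, Aurka (-0.604) and Bora (-0.67) passed too, so 9 of 10 did, where 678 of 11727 tested genes did. Ep2 against Ctrl and Ep2 against Ep1 share the Ep2 libraries, so these counts are not independent of each other.

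In Ep1 against Ctrl, 0 of 10 genes were lower and 0 were higher by limma at an adjusted p under 0.05. Of all tested genes, 4.97% were lower and 6.32% were higher. An unadjusted p under 0.05 was found for 1 of 10 genes (Plk4) and for 3454 of the 11727 tested genes, so this count is no sign of an effect. The log2 differences lay between -0.12 (Aurka) and 0.11 (Plk4) with a median of -0.01, equal to that of all tested genes after rounding. The 95% intervals of all 10 genes lay between -0.28 and 0.21, so a fall of the size seen in Ep2 against Ctrl was outside each gene's interval. A voom fit on the recovered fragments also called 0 of 10 genes, where 1068 of its 14112 genes were lower and 925 were higher. Over all tested genes, the 583 lower calls of Ep1 became 77 of 11658 without Ctrl replicate 2 and 1007 of 11590 without Ep2 replicate 1. These were the extremes among the 9 omissions. The count of members was 0 of 10 in each. At such shares few or none of 10 genes would be called, so the 0 is no trait of the members.

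By the values of single libraries, the Ep2 group lay entirely below Ctrl for 10 of 10 genes (32.7% of all tested genes) and entirely below Ep1 for 10 of 10 (30.3% of all tested genes). Ep1 lay entirely below Ctrl for Aurka (20.5% of all tested genes) and entirely above Ctrl for Plk4 (20.8% of all tested genes), and for 8 genes the groups overlapped. Together the 10 genes took 0.127% to 0.133% of fragments in Ctrl, 0.122% to 0.130% in Ep1 and 0.0671% to 0.0773% in Ep2. Within Ep2, replicate 1 held the highest value for 8 genes and replicate 3 the lowest for 7. Ep2 replicate 3 also had the highest mitochondrial share (2.49%), and without it 10 of 10 genes remained lower than Ctrl, with log2 differences of -1.02 for Aurkb and -1.06 for Plk1.

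**Figure D2:**
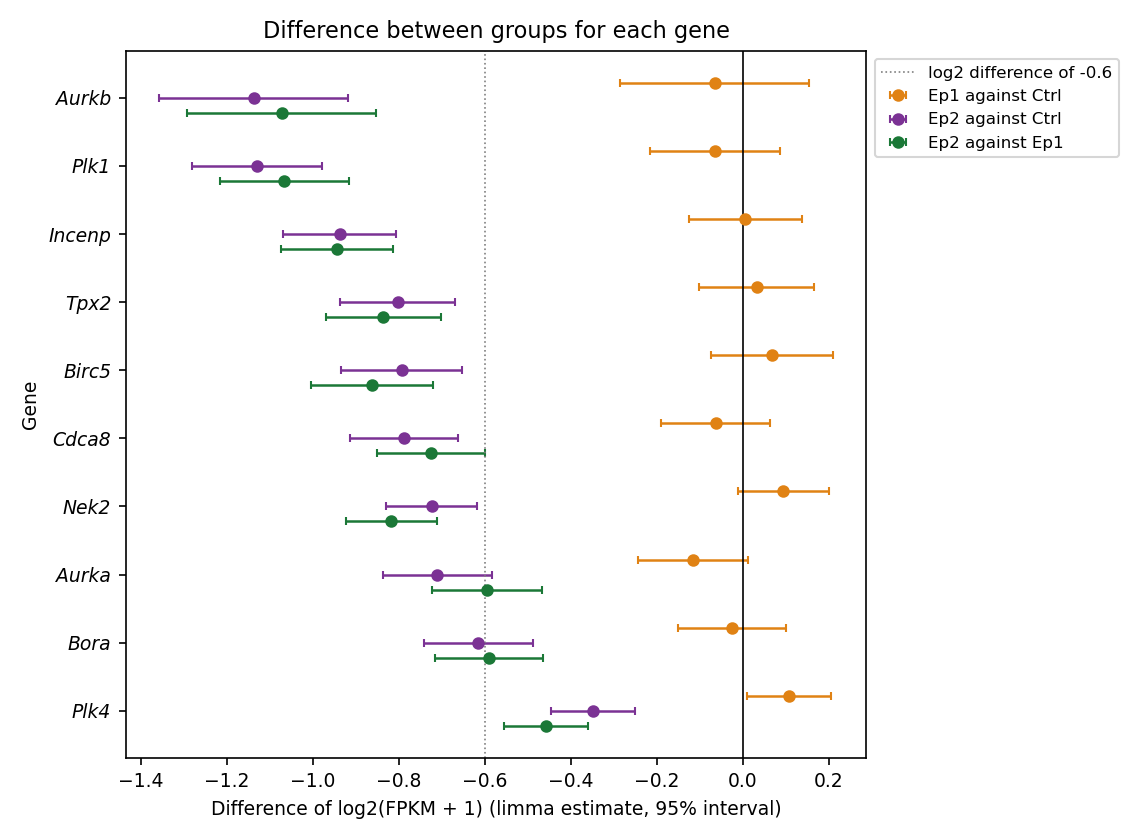
Difference of log2(FPKM + 1) between groups (x axis) for each of the 10 genes (y axis), as limma estimates with 95% intervals; the dotted line marks a log2 difference of -0.6. Ep2 against Ctrl runs from -1.14 (Aurkb) to -0.35 (Plk4), Ep2 against Ep1 runs from -1.07 to -0.46, and Ep1 against Ctrl stays between -0.12 and 0.11.

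Scaling was examined because the background counts depend on it. With each library centred on its median, 2971 genes were lower and 3311 higher in Ep2 against Ctrl (3436 and 2800 without centring), and 2383 were lower and 2974 higher in Ep2 against Ep1 (2950 and 2206 without). With the minimum log2 difference, the split changed from 688 lower and 387 higher to 551 and 494 in Ep2 against Ctrl, and from 465 and 227 to 331 and 315 in Ep2 against Ep1. All 10 members stayed lower in both comparisons with centring, with medians of -0.74 and -0.77.

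**Figure D3:**
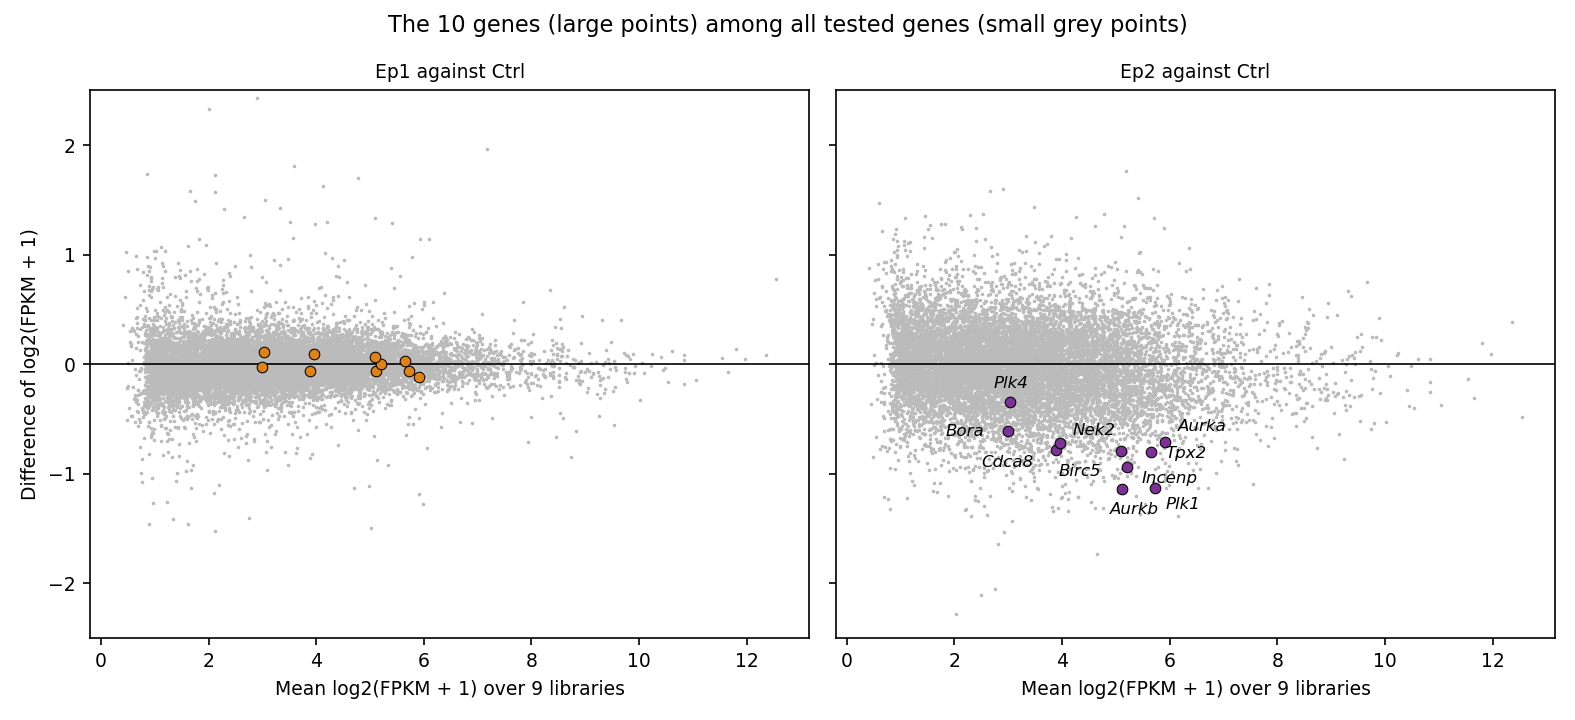
Difference of log2(FPKM + 1) (y axis) against the mean log2(FPKM + 1) over 9 libraries (x axis) for the 11727 tested genes (grey) and the 10 genes (large points), in Ep1 against Ctrl (left) and Ep2 against Ctrl (right). The 10 genes lie on both sides of 0 in Ep1, between -0.12 and 0.11, and between -1.14 and -0.35 in Ep2.

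FPKM is scaled by the listed length of each gene, so levels of different genes were put in order. Close places in this order depend on the length used. In Ctrl the order ran from Aurka (72.0 FPKM) through Plk1 (68.8), Tpx2 (59.1), Incenp (45.1), Aurkb (44.8), Birc5 (39.6), Cdca8 (17.1), Nek2 (17.0) and Bora (8.28) to Plk4 (7.65 FPKM). The libraries of Aurka and Plk1, of Incenp and Aurkb, and of Cdca8 and Nek2 overlapped in Ctrl, and the other neighbours did not. In Ep2 Plk1 (31.0 FPKM) came after Tpx2 (33.5 FPKM), with overlapping libraries, and Aurkb (20.0 FPKM) came after Incenp (23.1 FPKM) and Birc5 (22.4 FPKM), also with overlap between neighbours. Nek2 came before Cdca8 in Ep1 (18.2 and 16.3 FPKM) without overlap and in Ep2 (9.91 and 9.47 FPKM) with overlapping libraries. Plk4 (8.32 FPKM) came before Bora (8.14 FPKM) in Ep1 with overlapping libraries, and in Ep2 (5.79 and 5.07 FPKM) without overlap.

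Whether the members fell by the same amount was tested with ratios of pairs within a library, as log2 of (FPKM + 1) over (FPKM + 1). For 8 pairs of a partner or kinase with another kinase, an exact permutation test of the F statistic over the 3 groups (280 partitions, smallest possible p = 0.00357) was adjusted over the pairs. All 8 passed an adjusted p of 0.05, which says that the ratio differed among the groups and not between which of them. All pairs but Tpx2/Aurka had a denominator of Plk1 or Aurkb, so they share its error. Plk1 (-1.13) and Aurkb (-1.14) had the largest falls in Ep2 against Ctrl, and the pairs were chosen with earlier results of these data known. A rise of these ratios in Ep2 therefore follows from the choice of denominator and is no separate result.

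The ratio of Plk4 to Plk1 was -3.08, -3.06 and -2.90 in Ctrl, -2.79, -2.89 and -2.84 in Ep1, and -2.37, -2.22 and -2.10 in Ep2. The groups did not overlap and the ratio was highest in Ep2 (0.78 above Ctrl, exact permutation p = 0.00357, adjusted p = 0.00952). The ratio of Nek2 to Plk1 was 0.41 higher in Ep2 than in Ctrl (exact permutation p = 0.00357, adjusted p = 0.00952), and that of Bora to Plk1 was 0.52 higher (p = 0.0179 by the same exact test, adjusted p = 0.0238). For these 3 ratios the Ep2 libraries lay above all Ctrl and Ep1 libraries.

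The ratio of Aurka to Aurkb was 0.610, 0.698 and 0.713 in Ctrl, 0.635, 0.631 and 0.603 in Ep1, and 0.996, 1.09 and 1.21 in Ep2. The Ctrl and Ep1 values overlapped and the Ep2 values lay above them (0.43 above Ctrl, exact permutation p = 0.0107, adjusted p = 0.0171). The ratios of Incenp, Birc5 and Cdca8 to Aurkb were 0.20, 0.34 and 0.35 higher in Ep2 than in Ctrl, with adjusted p of 0.0286, 0.0143 and 0.0286 by the exact permutation test. The Ep2 libraries lay above all Ctrl libraries for the 3 subunits, and overlapped Ep1 for Incenp and Birc5.

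The ratio of Tpx2 to Aurka was lower in Ep2 than in Ctrl. It was -0.31, -0.28 and -0.26 in Ctrl, -0.18, -0.12 and -0.10 in Ep1, and -0.38, -0.37 and -0.37 in Ep2. The mean in Ep1 was 0.15 above Ctrl and the mean in Ep2 was 0.09 below it, without overlap between any of the groups (exact permutation p = 0.00357, adjusted p = 0.00952). The shift from Ctrl was thus larger in Ep1, and the p-value does not say which groups differ. Tpx2 (-0.80) fell more than Aurka (-0.71) in Ep2 against Ctrl, so the sign of this ratio in Ep2 is no separate result either.

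Single libraries decided some of these calls. Of the 8 ratios, 3 passed without Ctrl replicate 1, without Ctrl replicate 2 or without Ep1 replicate 3, 5 passed without Ctrl replicate 3, and 7 passed without Ep1 replicate 2. The ratios Tpx2/Aurka, Plk4/Plk1 and Aurka/Aurkb passed under each of the 9 omissions. The ratio Incenp/Aurkb lost its call under 5 of them, with adjusted p up to 0.0821 (without Ctrl replicate 2). Once gene length and GC content were corrected for in every library, an alternative chosen after seeing the data, all 8 ratios passed in the same direction, but the difference of Ep2 from Ctrl became 0.50 for Plk4/Plk1, 0.32 for Bora/Plk1 and -0.20 for Tpx2/Aurka, in place of 0.78, 0.52 and -0.09.

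**Figure D4:**
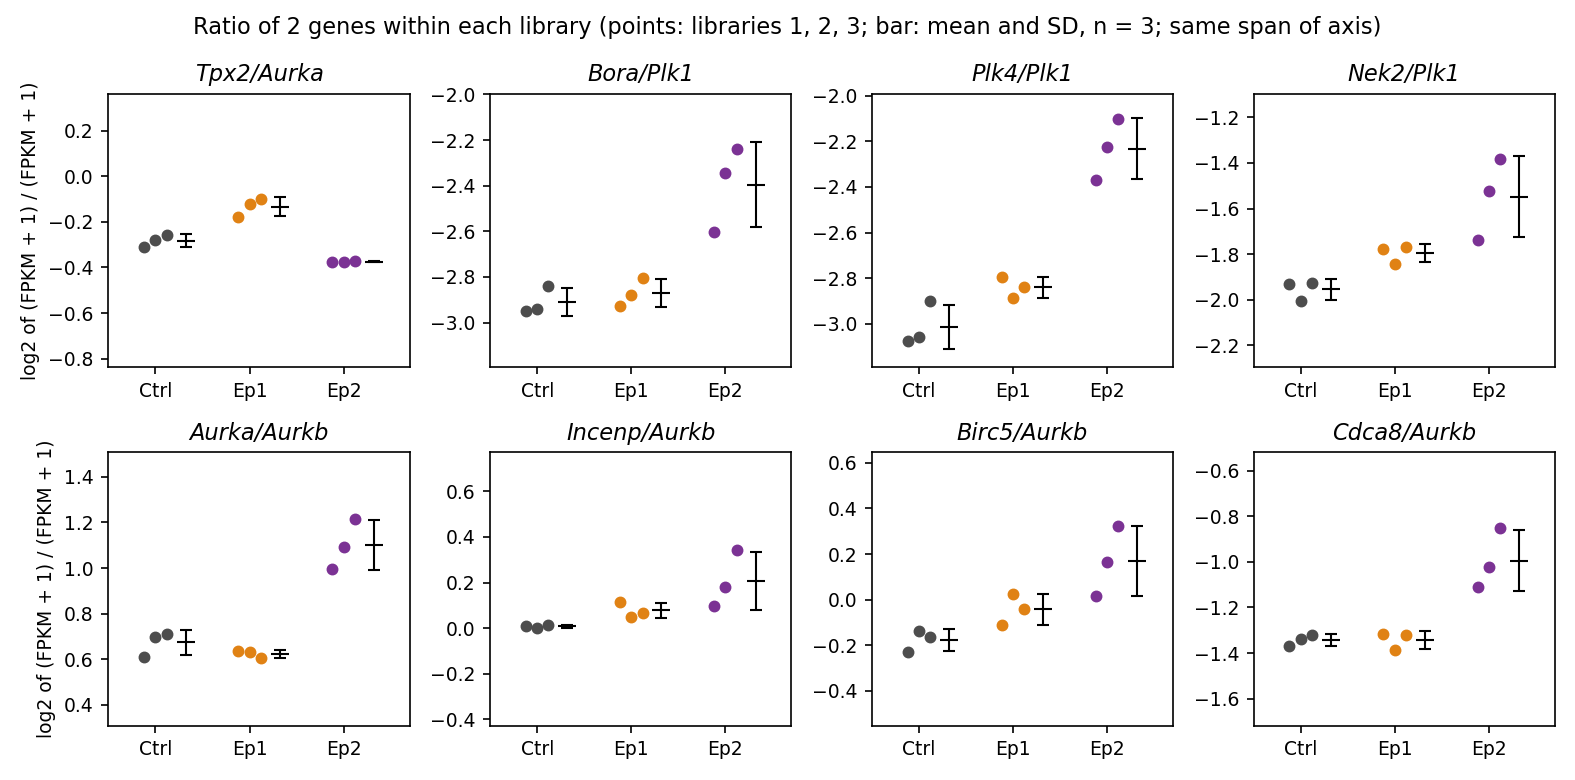
Ratio of the first to the second gene within each library, as log2 of (FPKM + 1) over (FPKM + 1) (y axis, the same span in every panel), by group (x axis). Points are libraries 1, 2 and 3 and the bar is the mean and SD (n = 3); the Ep2 libraries lie above Ctrl in 7 panels and below Ctrl for Tpx2/Aurka.

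Genes that belong to the same pathways were taken from lists made for this comparison, with earlier results of these data known. Of the 65 genes on 8 lists, 60 were tested. In Ep2 against Ctrl, 44 of them were lower and 2 were higher, with a median log2 difference of -0.45, and 4 were lower and 4 higher in Ep1 against Ctrl, with a median of 0.03. Over all tested genes, 29.3% were lower and 23.9% higher in Ep2 against Ctrl, and 4.97% were lower and 6.32% higher in Ep1 against Ctrl. Kif2c and Cdc20 on these lists are also among the hub genes that the study chose on these samples. Because of how the lists were made, their direction is not independent evidence.

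Among the relatives of the kinases, 9 were tested, of which 2 were lower and 2 higher in Ep2 against Ctrl. Of the Aurora and Polo-like relatives, Aurkc was at most 0.0356 FPKM and Plk5 was listed at 0 in all libraries. Plk3, a stress-responsive Polo-like kinase, was higher in Ep2 against Ctrl (log2 difference 0.42, SE 0.115, limma adjusted p = 0.0125), from 18.9 ± 0.909 to 25.8 ± 2.97 FPKM (SD, n = 3). Plk2, which is also induced by stress, was higher in Ep1 against Ctrl (0.71, SE 0.155, limma adjusted p = 0.0274) and was 0.28 in Ep2 against Ctrl (adjusted p = 0.159). Of 10 other NIMA-related kinases, 7 were tested, of which 2 were lower in Ep2 against Ctrl (Nek8 at -0.28, adjusted p = 0.00795, and Nek4 at -0.27), 1 was higher (Nek7 at 0.21) and 4 did not pass. Nek3 (0.22, adjusted p = 0.164) and Nek1 (0.02, adjusted p = 0.862) were among these 4. The median of these 7 was -0.04.

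Genes that act with the 10 members were mostly lower. Of 9 genes around Aurora A and the spindle pole, 8 were lower in Ep2 against Ctrl (median -0.57), with the smallest adjusted p for Kif11, a spindle motor (-0.83, SE 0.050, limma adjusted p = 4.29e-06). Nedd1, which brings the gamma-tubulin ring to the spindle, was 0.08 (adjusted p = 0.306). Of 10 genes that recruit Aurora B or act with it, all 10 were lower (median -0.71), led by Psrc1, a microtubule-binding protein (-1.38, limma adjusted p = 2.02e-06). Of 10 genes of mitotic entry and exit around PLK1, 9 were lower (median -0.54), led by Fbxo5, an inhibitor of the anaphase-promoting complex (-0.81, limma adjusted p = 5.92e-06), while Wee1, which holds CDK1 inactive, was -0.08 (adjusted p = 0.572).

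Among the lists of genes that act with the members, the one around Plk4 had the median nearest to 0. Of 9 genes of centriole duplication, 4 were lower in Ep2 against Ctrl and 5 did not pass (median -0.21), with the smallest adjusted p for Cep152, which recruits PLK4 (-0.58, SE 0.053, limma adjusted p = 3e-05). Cep63 (0.08, adjusted p = 0.409) and Cep135 (0.02, adjusted p = 0.829) went against the list and did not pass. Of 5 genes of the centrosome linker that NEK2 dissolves, 4 were lower (median -0.33), led by Lrrc45 (-0.76, limma adjusted p = 0.000143), and Cntln did not pass (-0.19, adjusted p = 0.16). Lrrc45 of this list was lower in Ep1 against Ctrl too (-0.45, limma adjusted p = 0.0203). Cep68 was -0.24 in Ep1 against Ctrl (limma adjusted p = 0.0126) and only -0.12 in Ep2 against Ctrl. It was higher in Ep2 against Ep1 (0.12, limma adjusted p = 0.0475). Elsewhere on the 8 lists, Ajuba (-0.46) and Kif2c (-0.26) were also lower in Ep1 against Ctrl. Plk2 (0.71), Ect2 (0.18), Lin9 (0.27) and Lin54 (0.20) were higher.

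Of 8 genes that control transcription or degradation of the members, 7 were lower in Ep2 against Ctrl (median -0.44). Mybl2, a transcription factor of late cell-cycle genes, had the smallest adjusted p (-1.16, SE 0.045, limma adjusted p = 1.47e-06), from 43.4 ± 2.02 to 18.8 ± 0.467 FPKM (SD, n = 3). Foxm1, another such factor, was lower by -0.54 on the log2 scale (limma adjusted p = 5.35e-05). Lin9, of the complex that MYBL2 joins, was -0.13 (adjusted p = 0.116).

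**Figure D5:**
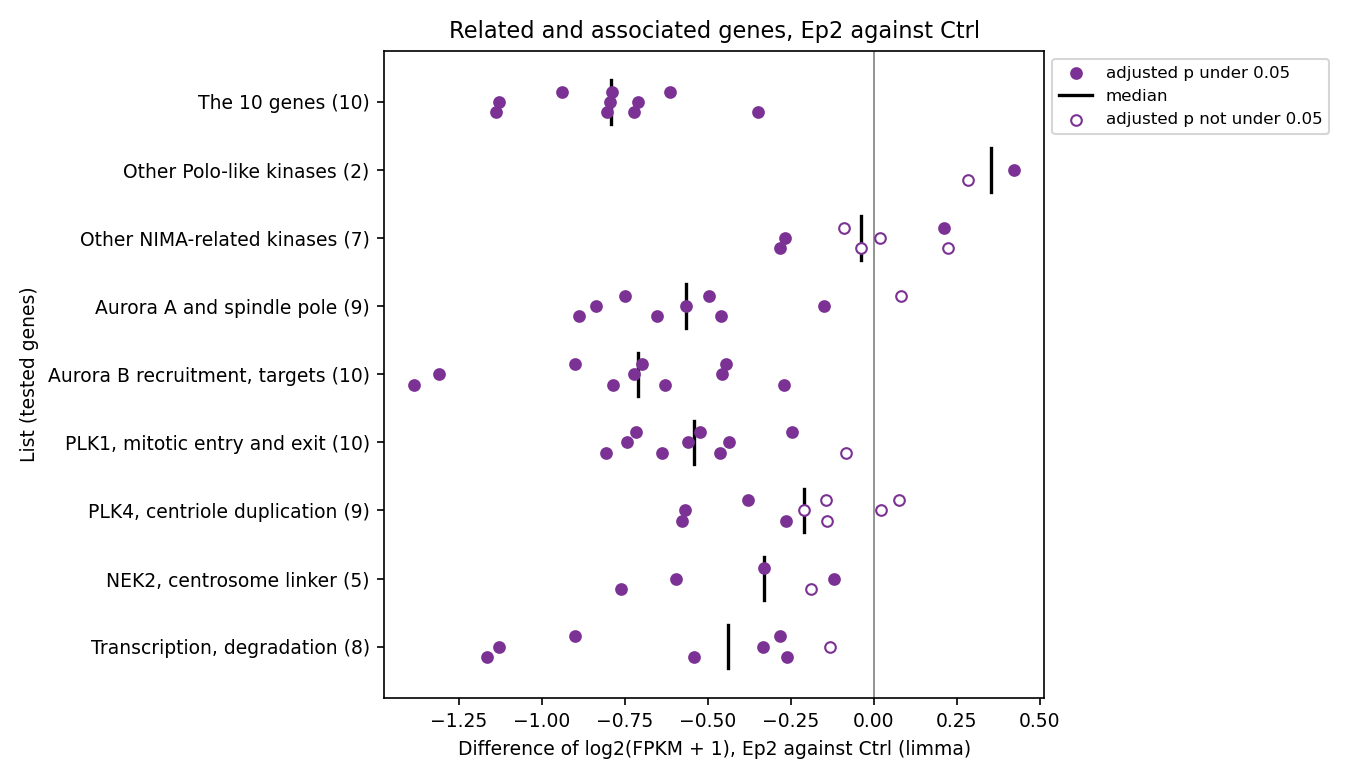
Difference of log2(FPKM + 1) in Ep2 against Ctrl (x axis, limma) for the 10 genes and the tested genes of 8 lists (y axis, number of tested genes in parentheses). Filled points have an adjusted p under 0.05, open points do not, and the black line is the median, which lies between -0.71 and 0.35 for the lists and at -0.79 for the 10 genes.

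The genes most like each kinase were found by the root mean square difference of log2(FPKM + 1), centred by gene, over the 9 libraries. Plk1 and Aurkb were each other's nearest member (0.047), and the 3 nearest genes outside the members were the same for both: Melk (a kinase), Mybl2 and Cdc20 (an activator of the anaphase-promoting complex), at 0.064, 0.064 and 0.066 from Plk1 and at 0.088, 0.10 and 0.079 from Aurkb. The median tested gene was 0.53 from Plk1 and 0.54 from Aurkb. The nearest to Nek2 were Clspn (0.042), Mki67 (0.048), a proliferation marker, and Rrm1 (0.054), a subunit of ribonucleotide reductase. Plk4 was nearest to Cip2a (0.026), Anln (0.035) and Slbp (0.035), the histone stem-loop binding protein, and Bora was its nearest member (0.121). Aurka was nearest to Ruvbl2 (0.031), Mars (0.033), a tRNA synthetase, and Spr (0.033), with Cdca8 as its nearest member (0.062). These distances describe the 9 libraries and depend on the size of the change in Ep2.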

How the data were processed

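RNA sequencing of 9 libraries (Ctrl, Ep1 and Ep2, 3 each, grouped by the treatment labels) was performed by the authors on paired-end reads, and the deposited values are FPKM (fragments scaled by the length of the gene and the depth of the library) for 54532 genes. The submitters' processing notes list Bowtie 0.12.2 and mm8, and the methods name GRCm39. The listed positions overlapped GRCm38 for 99.9% of 36522 genes compared and GRCm39 for 12.4%, so positions are given on GRCm38. The labels call the line both rat and mouse, and the gene identifiers are those of mouse. FPKM times gene length gave whole fragments for 100% of values (within 0.001).

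Values were analysed as log2(FPKM + 1) for the 11727 genes with at least 1 FPKM in at least 3 libraries, in one limma 3.58.1 fit (R 4.3.3, variance trend, robust estimation) with Benjamini-Hochberg adjustment over all tested genes and no covariate. Ratios were tested with exact permutations of the libraries. The procedures were tested on simulated data. The members, the lists, the motifs and the tests were chosen with earlier results of these data known. The genes named are the 10 members and, for each kinase, the 3 nearest genes. For each list they are the gene with the smallest adjusted p in Ep2 against Ctrl and those against its direction. Aurkc, Plk5, Foxm1, Lin9, Nek4, Plk2, Cep68, Cntln, Wee1, Ajuba, Kif2c, Ect2 and Lin54 were named after their values were seen. Alternatives were a pseudocount of 0.1, no filter, a minimum of 5 FPKM, median centring, a replicate block, a fit of the groups compared alone, voom on recovered fragments (at least 10 fragments), omission of each library and, chosen after seeing the data, a correction for gene length and GC content.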

Additional observations from a re-analysis of the deposited data

How the results depend on the processing

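Under 17 alternatives, the 10 members kept their direction and their side of the threshold in Ep2 against Ctrl and in Ep2 against Ep1 (170 values each), with log2 differences from -1.24 to -0.30 and from -1.18 to -0.40. The count past a log2 difference of -0.6 was 8 to 9 in Ep2 against Ctrl and 7 to 9 in Ep2 against Ep1. In Ep1 against Ctrl no member was called under any of them, and 162 of 170 values kept their sign. The sign changed for Incenp (0.01) with median centring (-0.0031), with voom (-0.012) and when libraries were left out (-0.026 to 0.052), for Bora (-0.02) when libraries were left out (-0.069 to 0.023), and, with the length and GC correction, for Plk1 (from -0.06 to 0.023) and Tpx2 (from 0.03 to -0.0023), and the cause was not tested. Of the 8 ratios, 3 to 8 passed when a library was left out. Replicate numbers did not pair the libraries (correlations of same-numbered libraries from -0.056 to 0.074, 0 of 9 over 0.1, and 2 of 9 libraries closest to their own number), and with a replicate block 10 members were lower in Ep2 than Ctrl and 10 lower than Ep1, 9 and 7 past the fold, and 0 in Ep1. Counts over all tested genes changed with the setting. In Ep1 against Ctrl, 583 lower and 741 higher of 11727 became 154 and 242 of 26717 with no filter and 1068 and 925 of 14112 with voom. They became 362 and 484 of 11600 with the length and GC correction, and 1046 and 1171 of 11345 with only the groups compared. With such shares, a count of 0 among the 10 members in Ep1 says little about them. Past the fold in Ep2 against Ctrl, 688 and 387 became 964 and 652 with a pseudocount of 0.1 and 1048 and 1159 with voom, and in Ep2 against Ep1, 465 and 227 became 678 and 423 and 679 and 870. Depth limits the values of the low members: in their lowest library the counting error was 3.90% for Plk4 and 4.76% for Bora, and it was above the SD of Plk4 in Ep2 (0.0489 FPKM at a mean of 5.79 FPKM).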
